A study of Drosophila melanogaster with 21 samples.

Results

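Histone transcripts were followed by family across 7 groups of Drosophila melanogaster S2 cells, a line of cultured embryonic cells with blood-cell features. The genes were chosen by name: every gene whose BDGP6 symbol begins with His1:, His2A:, His2B:, His3: or His4:, together with the variant genes His2Av, His3.3A, His3.3B and His4r. This gave 115 of the 13989 genes matched to the annotation. The 111 named copies fall into 5 replication-dependent families, of 23 genes for His1, 20 for His2A, 23 for His2B, 23 for His3 and 22 for His4. Because the copies are near identical, the estimated counts of all copies of a family were summed into 1 value, and no copy was read as a gene of its own. With the 4 variant genes this leaves 9 values per library.

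The series addresses how mutations in LS2, a fly splicing factor related to U2AF, affect its work on alternative splicing. Each group has 3 libraries of polyadenylated RNA. All lines carried a copper-inducible gene selected through hygromycin resistance, and all received 500 µM copper sulfate for 53 h, the GFP controls included. The induced gene was GFP, wild-type LS2 (WT), or LS2 with W62A, D63A and I64A (d38), with F285D and F287D (RRM2), with K192E and R194E (Beta5), with residues H197 to P233 exchanged for GGS motifs (GSlinker), or with E370K and D371K (SF1). The labels do not say whether the 3 libraries of a group came from separate cultures or lines, so the p-values measure the spread between these samples, which may be technical. Any difference between 2 constructs is also a difference between 2 cell lines, and these cannot be told apart.

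Histones are the proteins around which DNA is wound. A pair each of H2A, H2B, H3 and H4 forms the core of the nucleosome, and the linker histone H1 binds where DNA enters and leaves it. In flies the replication-dependent genes for these 5 proteins sit together in a tandem array, are transcribed in S phase, and give mRNAs that normally end in a stem-loop bound by Slbp instead of a polyA tail. Variant histones are made from separate genes, outside S phase as well, as ordinary spliced and polyadenylated mRNAs. H2Av does the work of both H2A.Z and H2A.X, H3.3 replaces H3 where nucleosomes are exchanged, and His4r encodes an H4 protein from a gene outside the array.

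In the annotation the family copies lie on chromosome 2L between 21416953 (the first His1 copy) and 21541681 (the last His3 copy). All copies of His1, His2A and His3 are on the plus strand and all copies of His2B and His4 on the minus strand. The variant genes lie elsewhere: His2Av (FBgn0001197) on 3R from 26866929 to 26869220, His3.3A (FBgn0014857) on 2L from 5055058 to 5056149, His3.3B (FBgn0004828) on X from 9152523 to 9156669 on the minus strand, and His4r (FBgn0013981) on 3R from 14625755 to 14626614.

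Before the results, 2 facts about the libraries are needed. By the effective lengths that the files give each transcript, the libraries fall into 2 sets. For transcripts over 2000 nt, length minus effective length varied with an SD of 68.4 to 88.6 nt in a first set, the 12 GFP, WT, d38 and RRM2 libraries, and of 278 to 379 nt in a second set, the 9 Beta5, GSlinker and SF1 libraries. Every group lies in a single set, so the set and the construct cannot be told apart when Beta5, GSlinker or SF1 is compared with GFP or WT. SF1 replicate 1 also stood apart from SF1 replicates 2 and 3 in several histone values, and some SF1 differences are given with and without it. Total estimated counts ran from 25125609 to 34670761 in the first set and from 17667236 to 38553848 in the second. Of the listed blood-cell markers, srp was at 88.3 TPM or more and Pxn at 201 TPM or more in every library, while NimC1 stayed at or below 0.192 TPM. The neuronal gene elav reached 7.07 TPM and the muscle gene Mhc 0.0480 TPM.

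Histone transcripts were a small part of these polyA-selected libraries, and most of it came from the variants. The 5 replication-dependent families together held 0.0167% to 0.0337% of the counts of a library, and the 4 variant genes 0.157% to 0.193%. On a scale that corrects for transcript length (TPM), the level in the GFP cells was highest for His2Av at 768 ± 13.9 TPM (SD, n = 3) and for His3.3B at 708 ± 17.5 TPM. Next came His4r at 564 ± 10.7 TPM, the His4 family at 303 ± 40.1 TPM and the His2A family at 252 ± 7.46 TPM. His3.3A stood at 162 ± 1.305 TPM and the His1 family at 122 ± 9.03 TPM. The His2B family was at 17.4 ± 0.826 TPM and the His3 family at 10.2 ± 0.790 TPM, an order of magnitude below their nucleosome partners. His4 and His2A are the only neighbours in this order whose GFP libraries overlapped, at 256.7 TPM for the lowest His4 library and 261 TPM for the highest His2A library.

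**Figure D1:**
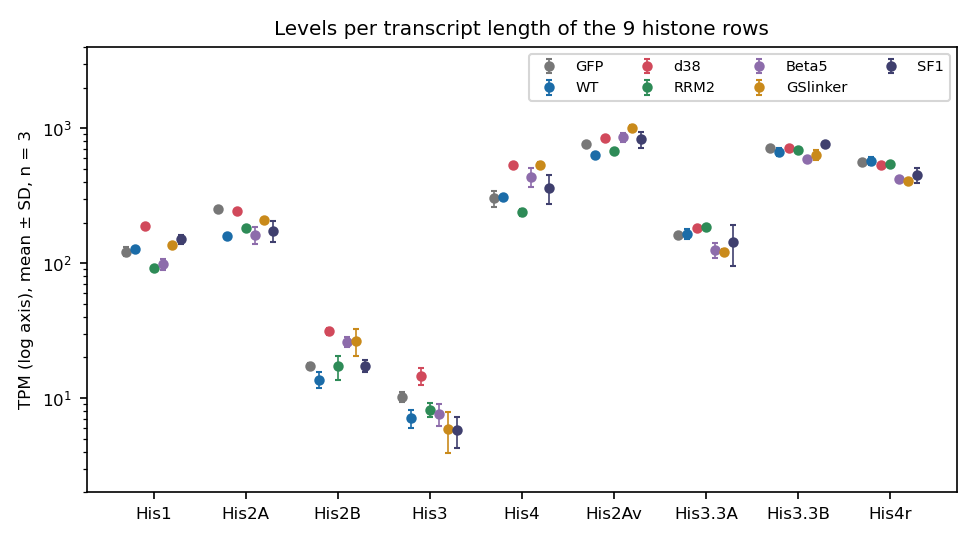
TPM on a log axis for the 9 histone values, with 1 point per group (mean of 3 libraries) and its SD. His2B and His3 sit far below the other 7 values in every group, and the d38 points are the highest or close to the highest of each replication-dependent family.

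The unequal levels of the families bear on precision. A library held 1443 to 4385 estimated counts for His1, 884 to 2364 for His2A, 1140 to 3412 for His4, 130 to 374 for His2B and 29 to 150 for His3. What these values measure is the part of each family's mRNA that oligo-dT selection captured, and how large that part was is unknown. As in any bulk sample, fewer cells in S phase and less histone RNA per cell cannot be told apart.

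Each of the 9 values differed somewhere among the 7 groups. Tests below are edgeR's quasi-likelihood tests over all 8716 rows of the gene table, 1 row per family or gene, with p-values adjusted by Benjamini and Hochberg's method and a threshold of 0.05. Levels are CPM, counts scaled by TMM to a common library size in the same way for all rows, an SE is the size of the log2 fold change over the square root of F, and "called" means past the threshold. In the F test over the 7 groups, all 9 histone values were called, beside 84.0% of all rows. Adjusted p ran from 2.118e-09 for His1 to 0.00656 for His3.3A. The background is so high that the count says little about histones, and the pairwise directions carry the information.

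**Figure D2:**
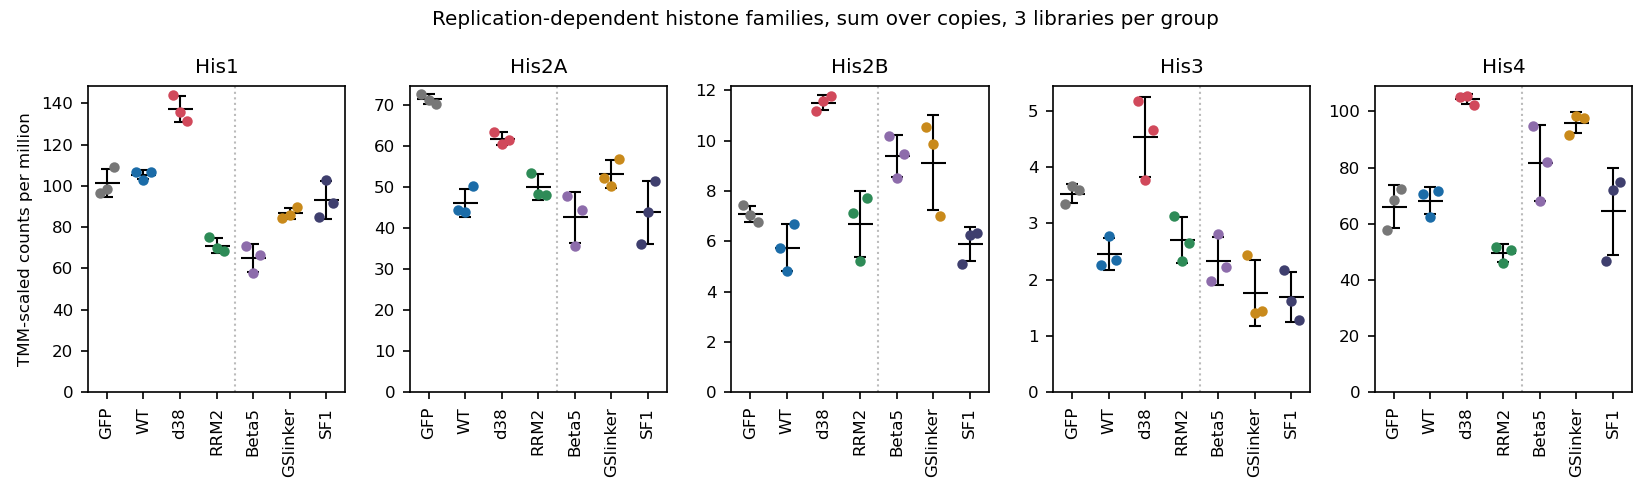
CPM of the 5 replication-dependent families in each library (points, replicates 1 to 3 from left to right) with the group mean and SD (black), n = 3. The dotted line separates the 2 library sets. All 3 d38 libraries lie above all 3 WT libraries in each panel.

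The clearest pattern was between d38 and WT, which lie in the same library set. LS2 carrying W62A, D63A and I64A went with more RNA of all 5 replication-dependent families than wild-type LS2: 5 of 5 rose, where 8.01% of all rows were called higher (16.3% in either direction). The increase was 1.30-fold for the linker histone His1 and 1.34-fold for His2A, and 1.99-fold for His2B, 1.84-fold for His3 and 1.53-fold for His4. The median log2 fold change of the 5 families was 0.61, and that of all rows was −0.00.

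By library, His1 stood at 144, 136 and 132 CPM in d38 and at 107, 103 and 107 CPM in WT. The groups did not overlap, and the log2 fold change was 0.38 (SE 0.07, adjusted p = 0.00119, edgeR). His2A stood at 63.4, 60.4 and 61.4 CPM in d38 against 44.3, 43.9 and 50.1 CPM in WT, a log2 fold change of 0.42 (SE 0.10, adjusted p = 0.00742). His2B, the partner of H2A in the nucleosome, had the largest shift. Its libraries held 11.2, 11.6 and 11.8 CPM in d38 and 5.75, 4.82 and 6.70 CPM in WT, and the log2 fold change was 0.996 (SE 0.14, adjusted p = 6.312e-05). For His3 the values were 5.17, 3.77 and 4.65 CPM in d38 and 2.25, 2.78 and 2.35 CPM in WT, a log2 fold change of 0.88 (SE 0.19, adjusted p = 0.00241). The lowest d38 library, replicate 2, was still above the highest WT library.

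His4 stood at 105, 106 and 102 CPM in d38 and at 70.7, 62.6 and 71.5 CPM in WT, a log2 fold change of 0.61 (SE 0.13, adjusted p = 0.00272). In all 5 families each d38 library exceeded each WT library, and 40.4% of all rows had groups that did not overlap in this comparison. The 5 calls stood in each of the 9 alternative analyses and with any 1 library of the 2 groups left out. Over those, the log2 fold change ran from 0.33 to 0.56 for His1, 0.39 to 0.61 for His2A, 0.89 to 1.19 for His2B, 0.77 to 1.04 for His3 and 0.55 to 0.80 for His4.

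Of the 4 variant genes, 1 rose, 1 fell and 2 did not pass the test. His3.3A, at 102 CPM in d38 and 106 CPM in WT, had a log2 fold change of −0.06 (SE 0.11, adjusted p = 0.791), and His3.3B, at 1009 and 1066 CPM, one of −0.08 (SE 0.06, adjusted p = 0.446). His4r, the H4 gene outside the array, fell by 0.28 on the log2 scale (SE 0.08, adjusted p = 0.0172), beside 8.28% of all rows called lower, from 209.5, 179.5 and 216 CPM in WT to 172, 163 and 165 CPM in d38. Its call was lost in 4 of 6 analyses with a library left out (without WT replicate 1 or 3 or d38 replicate 2 or 3, adjusted p up to 0.0957) and on library totals without TMM scaling (−0.20, adjusted p = 0.0706). In limma on log2(TPM + 1) the difference was −0.09 (adjusted p = 0.309). His2Av rose by 0.22 (SE 0.07, adjusted p = 0.0487), and that call was lost with any 1 library left out (adjusted p 0.0753 to 0.160), with RLE size factors (adjusted p = 0.0502) and in the unfiltered table (adjusted p = 0.0968).

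**Figure D3:**
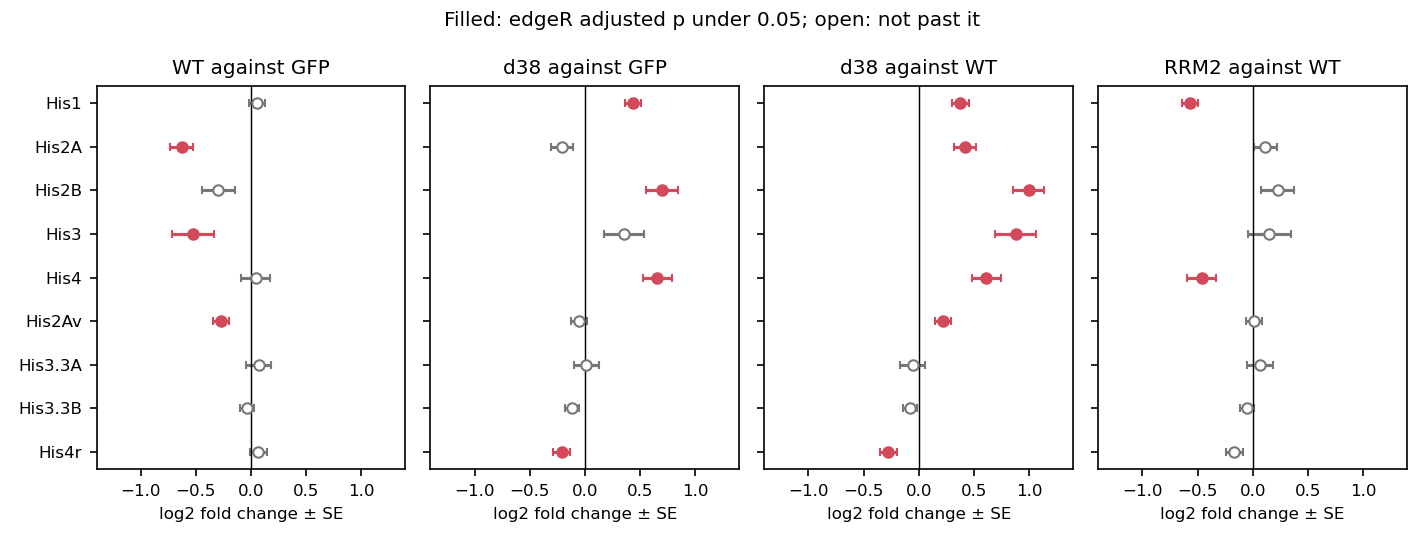
Log2 fold changes (points) with SE (bars) of the 9 histone values in 4 comparisons within the first library set; filled red points are past the edgeR threshold and open grey points are not. The 5 replication-dependent families are all filled and to the right of 0 for d38 against WT.

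Against GFP, in the same library set, 3 of the 5 families rose in d38 and none fell, where 15.6% of all rows were called higher and 30.0% in either direction. The GFP libraries held 96.4, 98.5 and 109 CPM for His1, and the log2 fold change of d38 over them was 0.44 (SE 0.07, adjusted p = 0.000119, edgeR). For His2B the GFP values were 7.43, 7.06 and 6.79 CPM and the log2 fold change was 0.70 (SE 0.14, adjusted p = 0.000827). For His4 they were 57.8, 68.4 and 72.3 CPM and the log2 fold change was 0.66 (SE 0.13, adjusted p = 0.000669). In each of the 3 families all d38 libraries lay above all GFP libraries, as 55.7% of all rows did in 1 direction or the other, and the 3 calls stood in every alternative run.

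The other core families had values of 0.35 for His3 (SE 0.18, adjusted p = 0.150) and −0.21 for His2A (SE 0.10, adjusted p = 0.134) on the log2 scale. All 3 His2A libraries of d38 were below those of GFP, which held 72.7, 71.0 and 70.3 CPM, the highest of any group. On log2(TPM + 1), His3 passed the threshold in limma (0.47, adjusted p = 0.0496). His2A passed it as a fall in edgeR on the 2 groups alone (−0.20, adjusted p = 0.000813) and within the first library set alone (−0.21, adjusted p = 0.00983), so that the absence of a fall holds for the fit over all groups. Of the variants, His4r fell by 0.21 (SE 0.08, adjusted p = 0.0482), a call lost with any 1 library left out and, at −0.12, on library totals without TMM scaling. On log2(TPM + 1) it was at −0.07 (adjusted p = 0.468, limma). His2Av, His3.3A and His3.3B had log2 fold changes of −0.05, 0.02 and −0.12, with adjusted p of 0.660, 0.942 and 0.188. For His2Av and His3.3B all d38 libraries lay below all GFP libraries, beside 55.7% of all rows not overlapping. The fall of His3.3B passed in 2 of 9 alternative analyses and in 0 of 6 with a library left out. The d38 comparisons with GFP and with WT use the same d38 libraries.

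In wild-type LS2 against GFP, the families called were other than those called in d38 against GFP. Here 2 of the 5 replication-dependent families fell and none rose, where 17.0% of all rows were called lower and 34.3% in either direction. His2A went from the 3 GFP values above to 44.3, 43.9 and 50.1 CPM in WT, a log2 fold change of −0.63 (SE 0.10, adjusted p = 6.445e-05, edgeR), or 0.647 of the GFP level. This call stood in every alternative, with log2 fold changes from −0.69 to −0.60. His3 stood at 3.34, 3.67 and 3.58 CPM in GFP and at 2.25, 2.78 and 2.35 CPM in WT, a log2 fold change of −0.53 (SE 0.19, adjusted p = 0.0378). Leaving out 1 library ended the His3 call in 5 of 6 cases (without any 1 of the GFP libraries, WT replicate 1 or WT replicate 3, adjusted p up to 0.122).

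The histone variant His2Av, which belongs to the H2A class of proteins, fell with WT as well. Its levels were 582, 571 and 581 CPM in GFP and 490.5, 464 and 483 CPM in WT, with no overlap and a log2 fold change of −0.27 (SE 0.07, adjusted p = 0.00779). That call stood in every alternative run. His1 and His4 had log2 fold changes of 0.06 (SE 0.07, adjusted p = 0.591) and 0.05 (SE 0.13, adjusted p = 0.827). His2B was at −0.30 (SE 0.15, adjusted p = 0.138), with its 3 WT libraries all below the 3 GFP libraries; 49.8% of all rows had groups that did not overlap. For His3.3A, His3.3B and His4r the values were 0.07, −0.04 and 0.07, with adjusted p of 0.677, 0.709 and 0.530. The same WT libraries served in d38 against WT, where His2A, His3 and His2Av were called the other way. Mean His2A was 71.3 CPM in GFP, 46.1 CPM in WT and 61.7 CPM in d38, so its d38 level lay between those of WT and GFP.

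**Figure D4:**
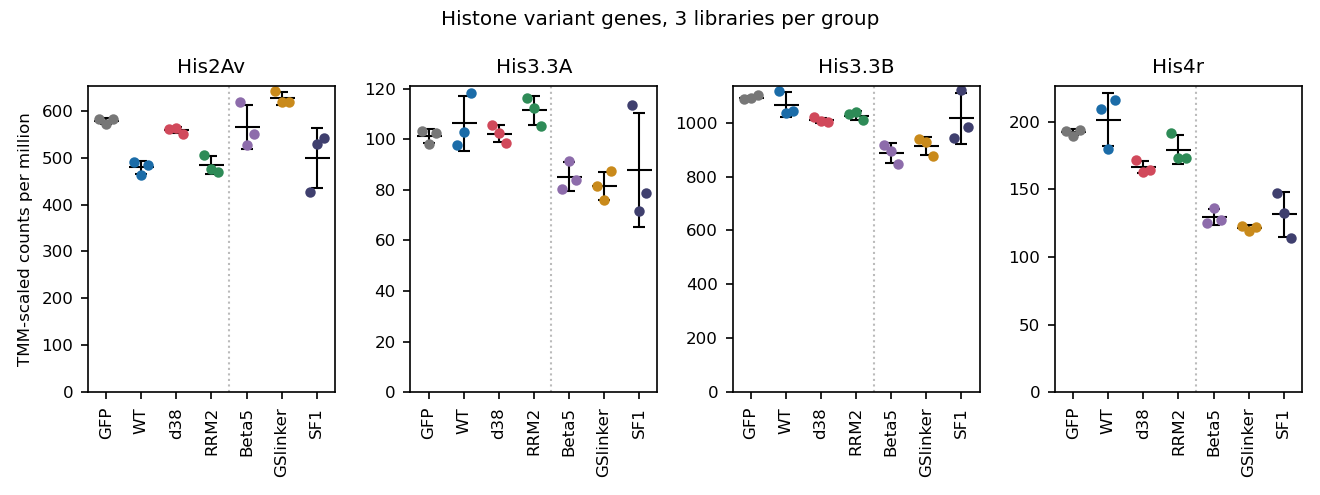
CPM of the 4 variant histone genes in each library (points, replicates 1 to 3 from left to right) with the group mean and SD (black), n = 3. The 9 libraries right of the dotted line hold the lowest His4r values of the series, and His3.3A of SF1 replicate 1 sits above SF1 replicates 2 and 3.

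RRM2, with F285D and F287D, was the group of the first set with the least His1 and His4. Against WT, 2 of the 5 families fell and none rose, where 3.91% of all rows were called lower and 8.18% in either direction. His1 stood at 75.0, 70.0 and 68.3 CPM, below all WT libraries, with a log2 fold change of −0.57 (SE 0.07, adjusted p = 3.087e-05, edgeR), or 0.674 of the WT level. This call stood in every alternative, from −0.61 to −0.47. His4 stood at 51.8, 45.9 and 50.8 CPM, a log2 fold change of −0.46 (SE 0.13, adjusted p = 0.0342), and its call was lost in limma on log2(TPM + 1) (−0.37, adjusted p = 0.102) and in 5 of 6 analyses with a library left out, all but the one without WT replicate 2. Both families had no overlap with WT, as 30.5% of all rows.

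The remaining families gave log2 fold changes between RRM2 and WT of 0.11 for His2A, 0.23 for His2B and 0.15 for His3, with adjusted p from 0.426 to 0.738. The 4 variants ran from −0.17 for His4r (adjusted p = 0.211) to 0.07 for His3.3A (adjusted p = 0.807). Against GFP, 3 of 5 families fell in RRM2, beside 11.7% of all rows called lower and 24.6% in either direction. These were His1 at −0.51 (SE 0.07, adjusted p = 3.159e-05), His2A at −0.51 (SE 0.10, adjusted p = 0.000887) and His4 at −0.42 (SE 0.13, adjusted p = 0.0269). His2Av fell by 0.26 (SE 0.07, adjusted p = 0.0156). On log2(TPM + 1) neither His4 (−0.34, adjusted p = 0.0914) nor His2Av (−0.17, adjusted p = 0.131) passed in limma. With 1 library left out, His4 was lost without GFP replicate 2 or 3 or RRM2 replicate 2 or 3 and His2Av without RRM2 replicate 2 or 3.

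Set directly against each other, d38 and RRM2 stood at the 2 ends of the first set for His1 and His4. In d38, 4 of 5 families were higher than in RRM2, where 6.51% of all rows were called higher and 13.5% in either direction. His1 differed 1.93-fold, a log2 fold change of 0.95 (SE 0.07, adjusted p = 1.937e-08, edgeR), and His4 2.10-fold, a log2 fold change of 1.07 (SE 0.13, adjusted p = 9.052e-06). Both changes exceed those of His2B at 0.77 (SE 0.14, adjusted p = 0.000863) and His3 at 0.73 (SE 0.18, adjusted p = 0.0102), though the differences between families were not tested. The His3 call was lost without d38 replicate 1 or RRM2 replicate 2 (adjusted p up to 0.0636). His2A, at 0.31 (SE 0.10, adjusted p = 0.0533), passed in 7 of 9 alternative analyses, DESeq2 among them (adjusted p = 0.0384), and in 0 of 6 with a library left out. All 5 families had d38 libraries wholly above RRM2, beside 43.7% of all rows not overlapping. No variant was called in edgeR. His2Av, at 0.21 (adjusted p = 0.0747), passed in 6 of 9 alternative analyses and in 0 of 6 with a library left out. His3.3A, His3.3B and His4r were at −0.12, −0.02 and −0.11, with adjusted p of 0.566, 0.876 and 0.430.

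Across both library sets, His4r gave the most uniform contrast. It stood at 125, 136 and 127 CPM in Beta5, 123, 119.6 and 122 CPM in GSlinker and 148, 133 and 114 CPM in SF1. All 9 of these libraries lay below the 12 libraries of the first set, which ran from 163 to 216 CPM, an order seen in 5.52% of all rows. Against GFP the log2 fold changes were −0.57 (adjusted p = 5.368e-06), −0.66 (adjusted p = 7.192e-07) and −0.55 (adjusted p = 6.634e-06, edgeR), and against WT −0.64, −0.73 and −0.62. The 6 calls stood in every alternative run. Whether they follow the constructs or the library set cannot be told apart.

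The families in Beta5, with K192E and R194E, moved in different directions. Against GFP, 3 fell and 1 rose, where 57.5% of all rows were called (27.9% lower and 29.7% higher). His1, at 70.9, 57.9 and 66.4 CPM, fell by 0.64 on the log2 scale (SE 0.08, adjusted p = 9.269e-07), and His2A, at 47.6, 35.5 and 44.5 CPM, fell by 0.75 (SE 0.10, adjusted p = 7.14e-06). His3, at 1.98, 2.81 and 2.22 CPM, fell by 0.59 (SE 0.20, adjusted p = 0.0151), a call lost on log2(TPM + 1) (−0.38, adjusted p = 0.0766) and without Beta5 replicate 1 (adjusted p = 0.0591). His2B, at 10.2, 8.51 and 9.46 CPM, rose by 0.40 (SE 0.15, adjusted p = 0.0246), a call lost in 4 of 6 analyses with a library left out. His4, at 0.30 (SE 0.13, adjusted p = 0.0559), did not pass in edgeR but passed as a rise on log2(TPM + 1) (0.52, adjusted p = 0.00361, limma). The variant His3.3B fell by 0.30 (SE 0.06, adjusted p = 0.000502).

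Against WT, His1 was again lower in Beta5, at −0.70 (SE 0.08, adjusted p = 5.913e-07), and His2B was higher, at 0.70 (SE 0.15, adjusted p = 0.000629), beside 53.6% of all rows called (26.3% higher and 27.3% lower). His2Av was higher by 0.24 (adjusted p = 0.0110), His3.3A lower by a log2 fold change of −0.32 (adjusted p = 0.0242) and His3.3B of −0.27 (adjusted p = 0.00171, edgeR). The His3.3A call was lost without WT replicate 3 or Beta5 replicate 1 (adjusted p up to 0.131). The His2Av call was lost without Beta5 replicate 1 (0.15, adjusted p = 0.132) and in the unfiltered table (adjusted p = 0.0557). His4 was at 0.26 (adjusted p = 0.105, edgeR) and passed as a rise on log2(TPM + 1) (0.49, adjusted p = 0.006375, limma). With WT in the first set, these values carry the same limit as those against GFP.

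In GSlinker all 5 families were called against GFP, 2 higher and 3 lower, beside 63.5% of all rows (32.1% higher and 31.4% lower). His4 rose to 91.7, 98.4 and 97.8 CPM, a log2 fold change of 0.54 (SE 0.13, adjusted p = 0.00150), and His3 fell to 2.43, 1.41 and 1.44 CPM, a log2 fold change of −1.03 (SE 0.22, adjusted p = 0.000341, edgeR). His2A changed by −0.42 (SE 0.10, adjusted p = 0.00141). His2B, at 0.36 (adjusted p = 0.0448), was lost in 5 of 6 analyses with a library left out. His1, at 84.7, 85.7 and 89.6 CPM, changed by −0.23 in CPM (SE 0.07, adjusted p = 0.0128) but by 0.17 on log2(TPM + 1) (limma, adjusted p = 0.0351), so its direction was not the same in both analyses. Without GFP replicate 3 the edgeR value was −0.17 (adjusted p = 0.0790). His3.3A and His3.3B fell by 0.31 (adjusted p = 0.0245) and 0.26 (adjusted p = 0.00160), and the His3.3A call was lost without GFP replicate 1, GFP replicate 3 or GSlinker replicate 2 (adjusted p up to 0.0782). His2Av was at 0.12 (SE 0.07, adjusted p = 0.185, edgeR) and passed as a rise on log2(TPM + 1) (0.38, adjusted p = 0.000257, limma). Against WT, where 58.0% of all rows were called (28.4% higher and 29.6% lower), His2B (0.65) and His4 (0.49) were higher and His1 (−0.28) lower, with His2Av at 0.39 (SE 0.07, adjusted p = 0.000211). The other variants fell, His3.3A by 0.38 (SE 0.12, adjusted p = 0.00797), His3.3B by 0.22 (SE 0.06, adjusted p = 0.00581) and His4r as given above. The His3.3A call was lost without WT replicate 3 (adjusted p = 0.0530) and the His3.3B call on log2(TPM + 1) (−0.07, adjusted p = 0.365, limma), where His1 was at 0.10 (adjusted p = 0.218). His2A was at 0.20 against WT (adjusted p = 0.101, edgeR) and passed as a rise on log2(TPM + 1) (0.38, adjusted p = 0.00335, limma). His3 was at −0.50 against WT (adjusted p = 0.0580, edgeR).

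SF1, with E370K and D371K, had 2 families lower than GFP, beside 58.2% of all rows called (29.2% lower). His2A stood at 36.1, 44.0 and 51.4 CPM, a log2 fold change of −0.71 (SE 0.10, adjusted p = 9.521e-06), and His3 at 2.17, 1.62 and 1.29 CPM, a log2 fold change of −1.02 (SE 0.20, adjusted p = 0.000246, edgeR). Against WT none of the 5 families was called, where 49.0% of all rows were, and 4 of the 9 values passed on log2(TPM + 1). Among the values not called, His1, His3 and His3.3A were lower at an unadjusted p under 0.05 in edgeR (adjusted p = 0.0513, 0.0565 and 0.0577). On log2(TPM + 1), His1 was instead called higher, at 0.23 (adjusted p = 0.00686, limma). Replicate 1 of SF1 held 46.6 CPM of His4 and 114 CPM of His3.3A, and replicates 2 and 3 held 71.9 and 74.7 CPM of His4 and 71.5 and 78.8 CPM of His3.3A. Without replicate 1, His3.3A was at −0.50 against WT (adjusted p = 2.819e-05), compared with −0.27 with it (adjusted p = 0.0577). His3 was then at −0.74 (adjusted p = 0.0107) and His2Av at 0.16 (adjusted p = 0.0282). Against GFP, His3.3A was at −0.43 without replicate 1 (adjusted p = 0.000105, edgeR) and at −0.20 with it (adjusted p = 0.146). His4 changed sign when replicate 1 was left out, from −0.04 to 0.15 against GFP and from −0.09 to 0.10 against WT. It passed the threshold in none of these fits. The His2Av difference from GFP, −0.21 with all 3 libraries (adjusted p = 0.0189), was −0.11 without it (adjusted p = 0.118), and on log2(TPM + 1) it was 0.10 (adjusted p = 0.286, limma).

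Within the second set, where the comparisons do not cross the 2 sets, the constructs also differed. The set was not uniform, as SF1 replicate 1 and Beta5 replicate 2 stood apart in isoform shares given below. The comparisons here may carry such differences between libraries. Beta5 had less His1 than GSlinker, by a log2 fold change of −0.41 (SE 0.08, adjusted p = 0.000681), and than SF1, by −0.52 (SE 0.08, adjusted p = 3.19e-05, edgeR). The backgrounds were 17.0% and 21.2% of all rows called, with 2 and 3 of the 9 histone values past the threshold. These tests estimate the spread of a row over all 7 groups. In a fit of the second set alone the backgrounds were lower, at 6.96% and 10.8%. His2B was higher in Beta5 than in SF1, by 0.68 (SE 0.15, adjusted p = 0.00246). In these 3 differences the calls stood in every alternative run. GSlinker exceeded SF1 in His2B (0.64), His4 (0.58) and His2Av (0.33), with adjusted p from 0.00287 to 0.00459 beside 27.8% of all rows called. In a fit of those 2 groups alone, no histone value was called, beside 7.53% of all rows. In a fit of the second set alone, 12.7% of all rows were called between GSlinker and SF1.

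Other genes of histone supply were examined as lists. Of 14 measured genes for histone mRNA 3′ end processing and the histone locus body, 1 fell and none rose between WT and GFP, beside 17.0% of all rows called lower and 34.3% in either direction. The 1 was mxc, the scaffold of the histone locus body, at −0.32 (SE 0.09, adjusted p = 0.00671, edgeR). Slbp, which binds the stem-loop of histone mRNAs, was at 132, 124 and 123 CPM in GFP and 113, 116 and 128 CPM in WT, a log2 fold change of −0.09 (SE 0.07, adjusted p = 0.340). In d38, Slbp was at 117, 113 and 114 CPM, a log2 fold change of −0.06 from WT (SE 0.07, adjusted p = 0.637). Slbp was called in none of the 15 comparisons in edgeR. Its lowest adjusted p was 0.0503, at 0.18 between GSlinker and SF1.

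Of 11 measured histone chaperones, 4 fell and none rose in WT against GFP, beside the same 17.0% and 34.3%. Among them were Spt6, an elongation factor that carries H3 and H4, at −0.51 (SE 0.07, adjusted p = 3.516e-06, edgeR), XNP, a partner in H3.3 deposition, at −0.26 (SE 0.08, adjusted p = 0.0122), and asf1, which hands H3 and H4 to other chaperones, at −0.26 (SE 0.06, adjusted p = 0.00118). The list's median log2 fold change was −0.17. The gene cid, which encodes the H3 variant of centromeres and lies outside the naming rule, fell by 0.43 (SE 0.10, adjusted p = 0.00165).

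Of 16 measured S-phase genes, 9 fell and 1 rose in WT against GFP, with a median log2 fold change of −0.18, where 34.3% of all rows were called (17.0% lower) and the median of all rows was −0.00. The 3 with the largest shifts were CycE, the cyclin of S-phase entry, at −0.36 (SE 0.07, adjusted p = 0.000770), RnrS, a ribonucleotide reductase subunit, at −0.35 (SE 0.08, adjusted p = 0.00140), and E2f1, the transcription factor of S-phase genes, at −0.30 (SE 0.10, adjusted p = 0.0321, edgeR). Of the histone families in the same comparison, as given above, His2A and His3 were called lower, at −0.63 and −0.53. His2B was at −0.30, His1 at 0.06 and His4 at 0.05, and none of these passed. In d38 against WT, where all 5 histone families rose, 0 of the 16 S-phase genes rose and 1 fell, with a median of 0.05. No processing gene was called in either direction there, and 1 chaperone fell. Of all rows, 16.3% were called in that comparison (8.01% higher and 8.28% lower). In RRM2 against WT, 0 of 16 S-phase genes, 0 of 14 processing genes and 1 of 11 chaperones, a fall, were called, beside 8.18% of all rows.

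The variant genes also give spliced and alternatively ended mRNAs, whose proportions were compared as shares of a gene's TPM. Tests are limma on the log ratio of the share, with a Simes p per gene adjusted over 4513 genes. In WT against GFP, d38 against GFP, d38 against WT and RRM2 against WT, 0 of the 4 genes were called, beside 17.2%, 13.5%, 8.24% and 2.02% of all genes; at an unadjusted p under 0.05 there was 1, in d38 against GFP. By edgeR's diffSpliceDGE, His4r was called in WT against GFP and in d38 against GFP, as it was with a share pseudocount of 0.001. RRM2 against GFP gave 1 call, beside 14.4% of all genes. That gene was His4r, whose isoform His4r-RD made up 96.5%, 95.1% and 96.8% of the gene's TPM in GFP and 90.2%, 90.3% and 93.0% in RRM2 (gene-level adjusted p = 0.00899).

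Larger differences lay between the library sets. His3.3A-RC and His3.3A-RD share start codon, stop codon and introns, and RC runs 154 nt further at its 3′ end. RC made up 18.02%, 15.9% and 23.5% of His3.3A TPM in GFP and 14.4% to 28.9% over the first set. It made up 99.0%, 57.2% and 97.2% in Beta5, 100%, 98.3% and 98.5% in GSlinker, and 28.8%, 98.6% and 99.5% in SF1. SF1 replicate 1 thus lay within the range of the first set, and Beta5 replicate 2 lay between the sets. The His3.3A difference from GFP was called for all 3 groups (adjusted p = 0.0129, 0.000933 and 0.0137, limma on shares). The Beta5 call was lost without Beta5 replicate 1 (adjusted p = 0.0521), and the SF1 call without SF1 replicate 2 (adjusted p = 0.0673) and in diffSpliceDGE (adjusted p = 0.176).

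His3.3B-RE, which runs 715 nt further at the 3′ end than His3.3B-RA with the same start and stop codons, showed the same order. It made up 52.9% to 67.7% of His3.3B TPM in the first set. It made up 99.5%, 84.1% and 99.2% in Beta5, 99.6%, 99.5% and 99.5% in GSlinker, and 52.7%, 99.6% and 99.4% in SF1, with adjusted p of 0.0179, 0.00252 and 0.0405 against GFP. In diffSpliceDGE, Beta5 (adjusted p = 0.0851) and SF1 (adjusted p = 0.638) did not pass. The Beta5 call was also lost without GFP replicate 1 or Beta5 replicate 1 or 3 (adjusted p up to 0.0853), and the SF1 call without any 1 library of the 2 groups other than SF1 replicate 1 (adjusted p up to 0.198). His4r-RD fell to 77.6% to 85.6% in the second set, from 90.2% to 96.8% in the first, and each of the 3 groups was called against GFP (adjusted p = 4.926e-06, 5.559e-06 and 1.165e-05). The counts of variant genes called against GFP were 3 and 4 of 4 in Beta5 and GSlinker, beside 34.1% and 43.4% of all genes, and 3 of 4 in SF1, beside 1714 of all 4513 genes. With 1 library left out, the lowest count was 1 in Beta5, without Beta5 replicate 1, and 1 in SF1, without SF1 replicate 2. The set and the construct cannot be told apart for these shares. Within the second set 0 of 4 genes were called in limma in any pair, beside 3.21%, 4.90% and 9.77% of all genes, and 0 at an unadjusted p under 0.05; diffSpliceDGE called 2 in Beta5 against GSlinker and 2 in GSlinker against SF1.

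**Figure D5:**
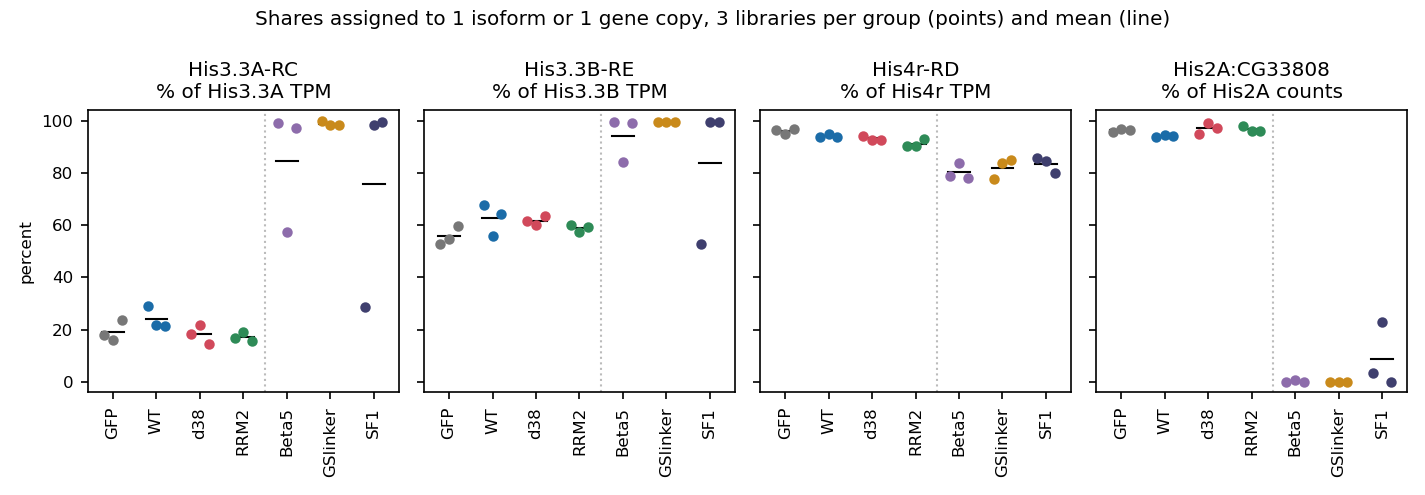
Shares in each library (points, replicates 1 to 3 from left to right) with the group mean (line): 3 panels give an isoform's percent of its gene's TPM, and the fourth the percent of His2A estimated counts given to a single copy. The groups left of the dotted line are the first library set. SF1 replicate 1 lies with the first set for His3.3A-RC and His3.3B-RE, at 28.8% and 52.7%, but not for the His2A copy.

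The way counts were spread over copies shows why single copies were not read. The copy His2A:CG33808, whose transcript of 476 nt is shorter than the 493 nt of most others, was given 93.7% to 99.1% of all His2A counts in the first set and 0% to 22.8% in the second. In the second set 9 other copies each had 8.38% to 11.1%. The His2A sum moved far less, from 43.9 to 72.7 CPM in the first set and from 35.5 to 56.9 CPM in the second. For His3 the counts were divided nearly evenly over 18 copies (5.35% to 5.56% each) and for His4 over 9 copies (11.02% to 11.1% each) in both sets.

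The length correction also differed between the sets. The count-weighted effective length of His1 was 826 to 874 nt in the first set and 738 to 786 nt in the second, for a transcript of 1023 nt. On the log2(TPM + 1) scale His1 in SF1 was at 0.30 against GFP and 0.23 against WT, where CPM gave −0.12 and −0.18. For GSlinker and SF1, comparisons of His1 across the sets have no direction that holds on both scales. For Beta5 the log2 fold change against GFP stayed between −0.72 and −0.31 in every alternative. How much of the change of sign goes with the effective length was not tested.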

How the data were processed

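The authors deposited 1 transcript abundance table per library, 21 in all. Per the file headers, each gives 30594 transcripts with a length, an effective length, an expected count (estimated, not whole) and a TPM. The submitters' processing notes name STAR, kallisto, dm6 and BDGP6, with no versions or roles; the steps that made each value are not given in the sources used here. The deposited TPM divides the estimated counts by effective length before scaling.

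Transcript identifiers were looked up in the Ensembl release 115 annotation of BDGP6 (30242 found, 98.8%, from 13989 genes), and the 352 others were left out. Counts were summed per gene, with the copies of each replication-dependent histone family in 1 row, and rounded (13883 rows). edgeR 4.0.16 in R 4.3.3 fitted 21 libraries together (TMM, filterByExpr with a count minimum of 10, quasi-likelihood, 14 residual degrees of freedom) on the 8716 rows that passed, all 9 histone rows among them. Isoform shares were tested with limma 3.58.1 on log2((share + 0.01) / (1 − share + 0.01)). Alternatives were DESeq2 1.42.0, other scalings, no filter, fewer groups in the fit, limma on log2(TPM + 1) and log2(TPM + 0.1), a replicate block and leaving out each library. Where a group was left with 2 libraries, the fit over all groups gave its spread.

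On simulated counts for WT against GFP with 200 rows changed 2-fold among 8566, edgeR recovered 87.0% of them with 180 calls, 3.33% of them false, and gave 0 calls where nothing had been changed. The share test, with 200 genes changed 4-fold among 4357, recovered 55.0% with 119 calls, 7.56% of them false, and where nothing had been changed it gave 1 call. Apart from these changes, every simulated library had the same mean for a row, without the 2 library sets. In the data 34.3% of all rows were called in WT against GFP, so the simulated rates need not hold there.

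The members and lists were chosen with earlier results of these data known. All 9 histone values are named. From each list the 3 genes with the largest change past the threshold in WT against GFP are named, and Slbp whatever its value.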

Additional observations from a re-analysis of the deposited data

How the results depend on the processing

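Of 64 calls among the 135 tests of a histone value in a comparison, 40 were made in the same direction under every alternative, the omission of each library included. The number of the 9 histone values called moved by over 1.5 times in these cases. With only the 2 groups in the fit it was 7 in place of 4 for d38 against GFP and 0 in place of 3 for GSlinker against SF1. In limma on log2(TPM + 1) and on log2(TPM + 0.1) it was 2 in place of 4 for RRM2 against GFP, 1 in place of 2 for RRM2 against WT and 4 in place of 1 for SF1 against WT, where the unfiltered table also gave 4. Within the second library set alone, Beta5 against GSlinker gave 1 in place of 2. The share of all rows called also moved by over 1.5 times in 21 cases with another analysis and 7 with a library left out, as in d38 against WT, where it was 32.3% on log2(TPM + 1), 27.3% within the first set alone and 10.3% without the filter, in place of 16.3%. The counts for the gene lists moved in 10, 8 of them in DESeq2. The causes were not tested. Signs turned only on the 2 TPM scales: His1 to 0.17 and 0.10 in GSlinker against GFP and WT and to 0.30 and 0.23 in SF1 against GFP and WT, His2Av to 0.10 in SF1 against GFP, and His3.3B to 0.21 in SF1 against WT. Another 65 values that passed in neither analysis also changed sign.

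With each library left out in turn, the number called ran from 2 to 3 for WT, 3 to 3 for d38, 2 to 4 for RRM2, 4 to 8 for Beta5, 5 to 8 for GSlinker and 4 to 6 for SF1 against GFP. It ran from 5 to 6 for d38, 1 to 2 for RRM2, 4 to 7 for Beta5, 6 to 8 for GSlinker and 1 to 4 for SF1 against WT, 3 to 4 for d38 against RRM2, 1 to 2 for Beta5 against GSlinker, 2 to 5 for Beta5 against SF1 and 3 to 5 for GSlinker against SF1.

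For isoform shares, diffSpliceDGE and a pseudocount of 0.001 each called 1 variant gene in place of 0 in WT against GFP and in d38 against GFP. diffSpliceDGE called 1 in place of 3 in SF1 against GFP, 2 in place of 4 in Beta5 against WT, 1 in place of 2 in SF1 against WT, and 2 in place of 0 in both Beta5 against GSlinker and GSlinker against SF1. With a library left out the calls ran from 1 to 3 for Beta5 against GFP, 1 to 4 for Beta5 against WT, 3 to 4 for GSlinker against GFP and WT, and 1 to 4 for SF1 against GFP and WT.

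The labels number the replicates alike in every group. Same-numbered libraries did not deviate together: over 45 pairs of libraries the correlation ran from −0.54 to 0.27, and in 0 of 15 comparisons was every pair over 0.1, so the numbers are not taken to pair samples. The replicate block changed 5 of the 135 calls, and the number called stayed at 3 for WT against GFP, went from 7 to 6 for d38 against WT and from 1 to 2 for SF1 against WT. Depth limits His3 most, at 29 to 150 estimated counts a library.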

Other observations

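The lists of other histone-related genes were also compared with GFP in the second library set, where the set and the construct cannot be told apart. Of all rows, 57.5% were called in Beta5 (29.7% higher and 27.9% lower), 63.5% in GSlinker (32.1% higher and 31.4% lower) and 58.2% in SF1 (29.2% lower), so most of the counts that follow lie near or below the background. Of 11 histone chaperones, 4 were higher and 2 lower than GFP in Beta5, 4 and 3 in GSlinker, and 2 and 4 in SF1 (edgeR, adjusted p under 0.05). Named after their values were seen, Ssrp, a subunit of the FACT complex that loosens nucleosomes, was higher than GFP by log2 fold changes of 0.67, 1.02 and 0.69 in Beta5, GSlinker and SF1, and Caf1-180, a subunit of the complex that assembles new nucleosomes behind the replication fork, by 0.46, 0.82 and 0.29, the last not past the threshold. PCNA, the sliding clamp of replication, also named after its values were seen, was lower by −0.48, −0.63 and −0.57. Of 16 S-phase genes, 3 were higher and 4 lower than GFP in Beta5, 2 and 6 in GSlinker, and 2 and 10 in SF1. Of 14 processing genes the counts were 5 and 2, 6 and 2, and 3 and 2.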
